A study of Homo sapiens with 5 samples.

Results

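The library from cells given IL-6 and IL-8 together (RM) was compared with the library from cells given IL-8 alone (IL-8). The intended difference between these libraries was the presence of IL-6 on top of IL-8. These were 2 of the 5 libraries of the study, each the only one of its condition. HT1080, a human fibrosarcoma cell line, was used at passages 15-18. The cells were embedded in a gel of type I collagen at 2 mg/ml in every condition. The RM and IL-8 gels held 10 cells/mm3, as did the untreated low-density gel (LD) and the gel given IL-6 alone (IL-6). The high-density gel (HD) held 50 cells/mm3 and received no cytokine. RM stands for IL-6 and IL-8 in the ratio 5:2. The sample labels give no amount for the IL-8 library, so an equal exposure to IL-8 is not established. The labels describe this condition both as an addition of the cytokines and as their conditioned medium. Gene by gene, 9797 of the 27188 genes listed besides the ribosomal RNA RNA5-8S5 had at least 10 reads summed over RM and IL-8 and were compared. With 1 library per condition there was no replicate check, no p-value could be given, and a difference between the libraries cannot be told apart from a difference between the cytokines.

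IL-6 acts through its receptor IL6R and the shared signal transducer gp130, the product of IL6ST. The associated JAK kinases phosphorylate STAT3, which enters the nucleus and raises SOCS3, an inhibitor that closes the loop, among other targets. IL-8, the product of the gene listed as IL8, binds the G-protein-coupled receptors CXCR1 and CXCR2 and is best known for directing neutrophil migration. In tumour cells both cytokines are associated with migration, and the study asked whether together they drive cell motility through the Arp2/3 complex and its WAVE activator WASF3.

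Outside RNA5-8S5, which took 79.59% of the reads of IL-8 (exact 95% interval 79.56 to 79.63) and 79.02% of those of RM (78.99 to 79.05), the libraries held 1120609 reads in IL-8 and 1434366 in RM. LD had 1645539 such reads, IL-6 had 1100967 and HD had 449661. HD also differed in its make-up, so its read counts below are given for reference only. RNA5-8S5 took 51.46% of the HD reads. Genes with a read numbered 20112 in HD, 13793 in IL-8 and 13468 in RM. Genes named as olfactory receptors had 1514 reads in HD, 54 in IL-8 and 24 in RM. The source of this difference was not tested. Mesenchymal genes were well read in both libraries, with 4590 reads of the filament gene VIM in IL-8 and 5518 in RM. The 15 mesenchymal and HT1080 markers listed summed to 14363 reads in IL-8 and 17838 in RM. Of 17 epithelial markers listed, 11 were at 0 in IL-8 and 8 in RM, and the whole list summed to 100 and 278 reads. KRT17, a basal keratin, had 4 reads in IL-8 and 165 in RM, against 2 in LD, 2 in IL-6 and 34 in HD. The other epithelial markers summed to 96 reads in IL-8 and 113 in RM. Among them the keratin KRT19 went the other way, with 24 reads in IL-8 and 6 in RM. It had 132 reads in LD, 35 in IL-6 and 13 in HD. Of 16 blood cell markers 12 were at 0 in each of the 2 libraries, including PTPRC. The whole blood list summed to 318 reads in IL-8 and 361 in RM. The 1 member with enough reads to be compared had 667 reads over the 2 libraries. Endothelial markers summed to 481 reads in IL-8 and 211 in RM over 10 genes, and neural markers to 1240 and 5 over 10 genes, with 4 and 4 and then 7 and 7 genes at 0. GAD1, the glutamate decarboxylase of inhibitory neurons, gave 1229 of the neural reads in IL-8. The angiopoietin receptor homologue TIE1 gave 225 of the endothelial reads in IL-8 and 8 in RM. The part of these genes in the results below was not tested.

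At least 2-fold higher in RM were 2137 genes (21.8% of those compared), and at least 2-fold lower were 2229 (22.8%). The ratio of the 2 read counts has an exact 95% interval from counting alone, and a gene was called when it differed at least 2-fold and this interval left out no difference. By that rule 1795 genes were called higher (18.3%) and 1860 lower (19.0%), which is the background against which every count of list members is to be read. The interval covers counting error only, and the amplification of the cDNA pool before sequencing means that reads are not independent molecules. Reads were scaled by the median ratio over the 9513 genes with reads in both libraries. Scaling by total reads outside RNA5-8S5 instead moves every log2 ratio of RM over IL-8 by -0.19.

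The differences depended on how often a gene was read. Among 4446 genes with 10 to 49 reads over the 2 libraries, 23.1% were at least 2-fold higher in RM and 29.1% lower, with a median log2 ratio of -0.17. Among 437 genes with at least 1000 reads, 13.3% were higher and 4.81% lower, with a median of 0.25. Well-read genes therefore leaned towards RM and rarely read genes away from it. The distance between RM and IL-8 was also among the larger ones of the low-density libraries. Over genes with at least 200 reads in the 2 libraries compared, the median absolute log2 ratio was 0.62 between IL-8 and RM, 0.31 between LD and IL-6, 0.49 between LD and IL-8, 0.63 between LD and RM, 0.48 between IL-6 and IL-8 and 0.66 between IL-6 and RM. The 3 comparisons that held RM had the 3 largest values.

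**Figure D1:**
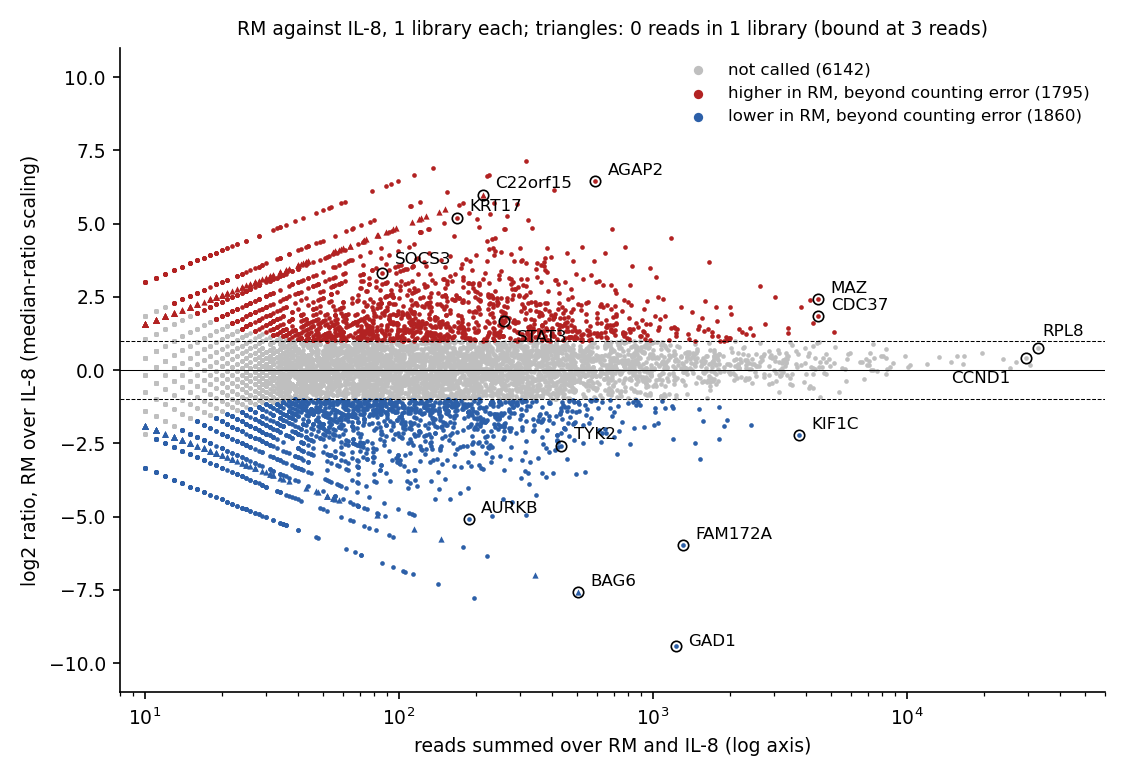
Each point is 1 of 9797 genes, with its reads summed over RM and IL-8 (horizontal, log axis) and its log2 ratio of RM over IL-8 (vertical); coloured points are the 1795 genes called higher and the 1860 called lower, dashed lines mark 2-fold, and triangles are genes with 0 reads in 1 library, drawn at their bound of 3 reads. The spread narrows from left to right, while GAD1, FAM172A, KIF1C, MAZ and CDC37 lie far from 0 with more than 1000 reads.

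The most abundant genes differed little. In the following, a pair of read counts is given for IL-8 and then RM, and a single value in parentheses is the log2 ratio of RM over IL-8. CCND1, which encodes the G1 cyclin D1, had 11700 reads in IL-8 and 17613 in RM, against 16703 in LD, 9682 in IL-6 and 573 in HD, a log2 ratio of 0.42. The glycolytic enzyme gene GAPDH (0.18), the elongation factor genes EEF1A1 (0.21) and EEF1G (0.48), and the ribosomal protein genes RPLP1 (0.08), RPS28 (0.27) and RPS3 (0.57) stayed under 2-fold, as did PTMA (0.47) and TVAS5 (0.37). RPL8 reached 0.74, from 11420 and 21436 reads in IL-8 and RM.

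The called genes with the most reads had narrow counting intervals, which cover counting error only. MAZ, a zinc finger transcription factor, had 635 reads in IL-8 and 3814 in RM, against 1210 in LD, 653 in IL-6 and 81 in HD, a log2 ratio of 2.42 (counting interval 2.30 to 2.54). CDC37, the HSP90 co-chaperone that delivers kinases, had 887 reads in IL-8 and 3582 in RM, against 962 in LD, 661 in IL-6 and 48 in HD, a log2 ratio of 1.85 (counting interval 1.74 to 1.95). Both were highest in RM, with each of the other low-density libraries at 635 to 1210 reads. ZC3H18, an adaptor of nuclear RNA decay, went from 597 to 3536 reads (2.40). The endoplasmic reticulum degradation lectin gene OS9 had 959 and 3306 reads (1.62) and NT5DC2 had 1375 and 3804 reads (1.30).

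In the other direction, KIF1C, a kinesin motor, had 3030 reads in IL-8 and 732 in RM, against 948 in LD, 727 in IL-6 and 67 in HD, a log2 ratio of -2.22 (counting interval -2.33 to -2.10). ATP6V0B, a subunit of the vacuolar proton pump, had 1862 reads in IL-8 and 574 in RM, against 1230 in LD, 331 in IL-6 and 26 in HD, a log2 ratio of -1.86 (counting interval -2.00 to -1.73). KIF1C was high in IL-8 and alike in the other low-density libraries, whereas ATP6V0B was low in both libraries from IL-6-treated cells. TCOF1, a nucleolar factor of ribosomal RNA synthesis, had 1464 and 442 reads (-1.89), the calcium sensor gene NCS1 1462 and 500 reads (-1.71) and the ubiquitin-conjugating enzyme gene UBE2Z 1243 and 582 reads (-1.26).

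The genes farthest from no difference were mostly read in a single library. GAD1 had 1229 reads in IL-8 and 2 in RM, against 0 in LD, 1 in IL-6 and 5 in HD, a log2 ratio of -9.43 (counting interval -12.48 to -7.57). FAM172A had 1293 reads in IL-8 and 23 in RM, against 28 in LD, 12 in IL-6 and 0 in HD, a log2 ratio of -5.98 (counting interval -6.64 to -5.39). BAG6, a chaperone of tail-anchored and defective proteins, had 508 reads in IL-8 and 0 in RM, against 430 in LD, 196 in IL-6 and 9 in HD, at least 190-fold lower in RM. GAD1 and FAM172A were raised in IL-8 alone, and BAG6 was missing from RM alone. The retinoic acid binding protein gene CRABP2 had 343 reads in IL-8 and 0 in RM, against 34 in LD, 2 in IL-6 and 29 in HD, at least 128-fold lower in RM. CRIP1 (at least 54.6-fold), TIGD3 (at least 30.7-fold) and AK309441 (at least 42.6-fold) were likewise without reads in RM. The glycine transporter gene SLC6A9 had 196 and 1 read in IL-8 and RM, the formin DAAM2 141 and 1 read, AQP7P1 218 and 3 reads, the autophagy protease gene ATG4D 176 and 3 reads and KLHL22 112 and 1 read.

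On the higher side, C22orf15 had 0 reads in IL-8 and 214 in RM, against 0 in LD, 0 in IL-6 and 3 in HD, at least 63.6-fold higher in RM. AGAP2, a GTPase-activating protein of the endosome, had 6 reads in IL-8 and 585 in RM, against 12 in LD, 11 in IL-6 and 14 in HD, a log2 ratio of 6.44 (counting interval 5.31 to 7.89). The gap junction gene GJB2 had 0 reads in IL-8 and 151 in RM, against 3 in LD, 1 in IL-6 and 0 in HD, at least 44.8-fold higher. HTRA3, a secreted serine protease, had 2 reads in IL-8 and 314 in RM, against 6 in LD, 2 in IL-6 and 0 in HD, a log2 ratio of 7.13 (counting interval 5.26 to 10.18). All of these had 12 reads or fewer in each of the other low-density libraries. NOL12 had 5 reads in IL-8 and 401 in RM, against 284 in LD, 147 in IL-6 and 19 in HD, and so, among the low-density libraries, was low in IL-8 only. HOXC5 had 2 and 225 reads, NS3BP 2 and 220 reads, CCDC61 0 and 122 reads and FAM174B 0 and 112 reads in IL-8 and RM.

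Several of these calls changed when entries that share sequence were added together. TIAF1, which RefSeq holds as another name of the myosin gene MYO18A, had 0 reads in IL-8 and 143 in RM while MYO18A had 117 and 36, and the sum gave a log2 ratio of 0.45 (0.10 to 0.80). NOMO3 had 0 and 128 reads, whereas the sum of its near-identical copies NOMO1, NOMO2 and NOMO3 had 631 and 785, a log2 ratio of 0.15 (counting interval from just under 0 to 0.30). HNRPF, an older symbol of HNRNPF, remained higher after addition, with 23 reads in IL-8 and 159 in RM (2.62, 1.99 to 3.32). The heat shock genes HSPA1A (31 and 0 reads) and HSPA1B (4 and 24 reads) encode the same protein, and their sum gave -0.71 (-1.52 to 0.08). The counting estimated how reads divide among such copies, and the library kit did not mark strand. For AGAP2 and HOXC5 the overlapping genes AGAP2-AS1 (547 and 480 reads) and HOXC6 (5 and 104 reads) add the same uncertainty. By gene span in RefSeq the same holds for ATG4D, DAAM2, SLC6A9, CYFIP1, GRK6, GSN, LOX, MVK, OSMR, PFKFB4, PSMC5, SYVN1, STAT5A and STAT5B, for FOXM1 with ITFG2 (15 and 140 reads), for FN1 with ATIC (184 and 510 reads) and for TAGLN with PCSK7 (103 and 440 reads).

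The IL-6 receptor and STAT pathway was mixed, with its transcription factor and feedback genes higher and the kinase TYK2 lower in RM. Of 30 genes listed, 22 were compared, 5 were called higher and 4 lower, shares of 22.7% and 18.2%, and the median log2 ratio was 0.41. On deposited TPM the median was -0.32. STAT3 had 57 reads in IL-8 and 203 in RM, against 331 in LD, 114 in IL-6 and 7 in HD, a log2 ratio of 1.67 (counting interval 1.24 to 2.12). SOCS3 had 7 reads in IL-8 and 79 in RM, against 23 in LD, 19 in IL-6 and 3 in HD, a log2 ratio of 3.33 (counting interval 2.22 to 4.69). For SOCS3 the RM library was above all others, whereas for STAT3 the IL-8 library was the lowest of the low-density libraries and LD the highest, with a CPM (depth-normalised reads, of those outside RNA5-8S5) of 50.9 in IL-8 and 142 in RM, against 201 in LD and 104 in IL-6.

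Receptors and ligands were sparsely read. IL6ST had 29 reads in IL-8 and 48 in RM, against 70 in LD, 57 in IL-6 and 6 in HD, a log2 ratio of 0.56 (counting interval -0.13 to 1.28), which was not called. IL6R had 9 reads in IL-8 and 8 in RM, against 9 in LD, 5 in IL-6 and 84 in HD, a log2 ratio of -0.34 (counting interval -1.91 to 1.21), so that no difference was detectable at this depth. JAK2 had 5 reads in IL-8 and 0 in RM, against 1 in LD, 5 in IL-6 and 2 in HD, too few reads to be compared. IL6 itself had no read in IL-8 or RM and 3 in the library given IL-6. OSMR, the gp130 partner that binds oncostatin M, had 12 reads in IL-8 and 51 in RM, against 64 in LD, 17 in IL-6 and 20 in HD, a log2 ratio of 1.92 (counting interval 0.99 to 2.96). Among the low-density libraries, OSMR and STAT3 were both lowest in IL-8. LIF, a related ligand, went the other way with 106 reads in IL-8 and 39 in RM, against 64 in LD, 66 in IL-6 and 6 in HD, a log2 ratio of -1.61 (counting interval -2.18 to -1.07). IL11RA, which binds IL-11, had 52 and 25 reads (-1.22).

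TYK2, a JAK family kinase, had 366 reads in IL-8 and 69 in RM, against 202 in LD, 128 in IL-6 and 6 in HD, a log2 ratio of -2.57 (counting interval -2.97 to -2.20). Its level was highest in IL-8 and lowest in RM among the low-density libraries. The paralogues STAT5A and STAT5B were called in opposite directions, at 3 and 23 reads (2.77) and 34 and 17 reads (-1.17). RefSeq places these genes as overlapping neighbours, and their sum was 37 reads in IL-8 and 40 in RM, a log2 ratio of -0.05 (counting interval -0.74 to 0.63). PIAS3, an inhibitor of STAT3, had 29 reads in IL-8 and 96 in RM, a log2 ratio of 1.56, and fell outside the naming rule.

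**Figure D2:**
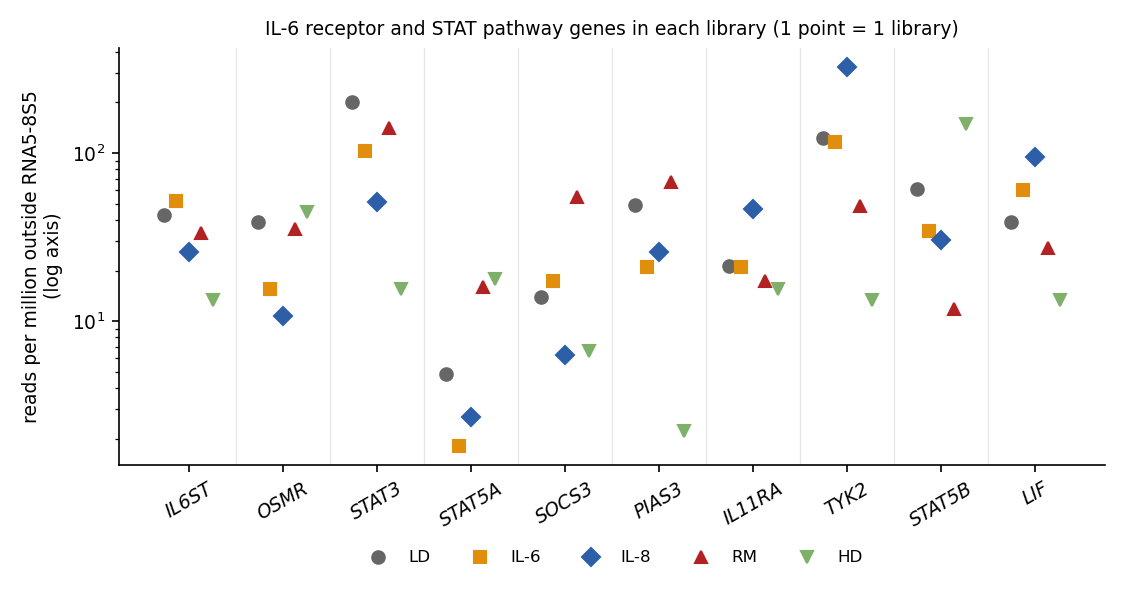
CPM of the reads outside RNA5-8S5 (log axis) of 10 IL-6 receptor and STAT pathway genes, 1 point per library. SOCS3 is highest in RM (79 reads) and low in IL-8 (7 reads), STAT3 lies lower in IL-8 than in the other low-density libraries, and TYK2 lies highest in IL-8 (366 reads).

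Genes known as STAT3 targets numbered 19 among those compared, of which 4 were called higher (21.1%) and 2 lower (10.5%), with a median of 0.42 that was 0.04 on deposited TPM and 0.15 with at least 1 read summed. Besides SOCS3 and OSMR the higher genes were MYC, with 3 reads in IL-8 and 24 in RM, against 35 in LD, 24 in IL-6 and 24 in HD, a log2 ratio of 2.83 (counting interval 1.11 to 5.21), and BIRC5, the survivin gene, with 50 reads in IL-8 and 282 in RM, against 150 in LD, 86 in IL-6 and 11 in HD, a log2 ratio of 2.33 (counting interval 1.89 to 2.79). MYC was low in IL-8 and BIRC5 high in RM. The lower ones were HIF1A, the oxygen-sensitive transcription factor (95 and 50 reads, -1.09), and BCL3 (18 and 8 reads, -1.34).

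The promoter letters did not separate the called genes. The STAT motif TTCNNNGAA, which reads the same on both strands, was searched in the 250 bases before each RefSeq start (GRCh38.p14), and 6.57% of 35116 promoters held it. By symbol 7546 of the compared genes (77.0%) matched a promoter. At least 1 of their promoters held the motif for 7.42% of these genes, for 110 of 1357 genes called higher (8.11%) and for 109 of 1430 called lower (7.62%). The AP-1 motif TGANTCA, also the same on both strands, was in 6.57% of promoters and for 6.02%, 6.26% and 6.15% of these groups of genes. Of the 29 STAT pathway and target genes matched to a promoter and compared, IRF1 alone held the STAT motif, shown in capitals within the 29 bases at chr5:132490879-132490907 on the minus strand, upstream of the gene.
IRF1: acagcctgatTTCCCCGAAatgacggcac
IRF1, an interferon-inducible transcription factor picked for this motif after its values were seen, had 8 reads in IL-8 and 13 in RM, a log2 ratio of 0.53 (counting interval -0.85 to 2.01).

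Genes acting downstream of the IL-8 receptors differed in both directions, by small counts close to the background. IL8 had no read in any library, CXCR1 had none in the low-density libraries, and CXCR2 had 3 reads in IL-8 and 4 in RM, against 0 in LD, 0 in IL-6 and 8 in HD. Of 19 pathway genes compared, 2 were called higher (10.5%) and 5 lower (26.3%), with a median of -0.13. PRKCA, the protein kinase C alpha gene, had 218 reads in IL-8 and 32 in RM, against 91 in LD, 44 in IL-6 and 44 in HD, a log2 ratio of -2.93 (counting interval -3.52 to -2.39). GRK6, a kinase that desensitises receptors, had 260 reads in IL-8 and 79 in RM, against 108 in LD, 35 in IL-6 and 5 in HD, a log2 ratio of -1.89 (counting interval -2.27 to -1.52). Both were highest in IL-8 among the low-density libraries. The phospholipase gene PLCB3 (110 and 56 reads, -1.14) and the RAC activator subunit gene ELMO1 (12 and 1 read, -3.75) were lower as well. The arrestin genes split, with ARRB2 at 7 and 47 reads (2.58) and ARRB1 at 36 and 19 (-1.09). PREX1, a RAC exchange factor driven by G-protein subunits, had 23 reads in IL-8 and 131 in RM, against 21 in LD, 26 in IL-6 and 18 in HD, a log2 ratio of 2.34 (counting interval 1.70 to 3.05).

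NF-kappaB target genes divided evenly, 4 called higher and 4 lower of 12 compared (33.3% each), with a median of 0.51 that was -0.04 on deposited TPM. The inhibitor genes themselves differed, with NFKBIA at 27 reads in IL-8 and 150 in RM, against 173 in LD, 50 in IL-6 and 3 in HD, a log2 ratio of 2.31 (counting interval 1.71 to 2.96), and NFKBIE at 14 and 3 reads (-2.39). The subunit genes of the non-canonical branch were higher, NFKB2 at 33 and 111 reads (1.58) and RELB at 3 and 25 reads (2.89). CSF1, a macrophage growth factor, had 89 and 249 reads (1.32). TNFAIP3, the A20 inhibitor, had 19 and 0 reads, at least 7.11-fold lower, and BIRC2 had 58 and 30 reads (-1.12).

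Of 22 AP-1 and immediate early genes compared, 4 were called higher and 4 lower (18.2% each), near the background in both directions. EGR1, the growth factor-induced zinc finger gene, had 34 reads in IL-8 and 1 in RM, against 17 in LD, 9 in IL-6 and 1 in HD, a log2 ratio of -5.25 (counting interval -10.60 to -2.68). BTG2, an antiproliferative gene, had 70 reads in IL-8 and 9 in RM, against 13 in LD, 36 in IL-6 and 0 in HD, a log2 ratio of -3.13 (counting interval -4.31 to -2.12). Both were highest in IL-8 among the low-density libraries. JUND (92 and 44 reads, -1.23) and SPRY4 (29 and 14 reads, -1.22) were also lower. SRF, the serum response factor gene, had 255 and 639 reads (1.16, and 0.97 when scaled by total reads), FOSB 2 and 18 reads (3.00) and ZFP36, which shortens the life of cytokine mRNAs, 2 and 12 reads (2.42).

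The actin nucleation machinery was mixed. Of 24 Arp2/3 and WAVE genes compared, 2 were called higher (8.33%) and 4 lower (16.7%), with a median of 0.13 that turned to -0.06 when scaled by total reads. WASF3 had 4 reads in IL-8 and 15 in RM, against 21 in LD, 2 in IL-6 and 4 in HD, a log2 ratio of 1.74 (counting interval 0.09 to 3.79). Among the low-density libraries it was lowest in IL-6 and IL-8, and its call was lost when scaled by total reads, where the log2 ratio was 1.55. The core subunit genes ACTR2 (46 and 68 reads, 0.40) and ACTR3 (60 and 68 reads, 0.01) were not called, with counting intervals of -0.16 to 0.97 and -0.51 to 0.54. ARPC5, a smaller subunit of the complex, had 42 reads in IL-8 and 132 in RM, against 154 in LD, 72 in IL-6 and 1 in HD, a log2 ratio of 1.49 (counting interval 0.97 to 2.02). The WAVE regulatory complex genes BRK1, CYFIP1 and WASF1 were lower, whereas ABI1 (0.83), ABI2 (0.47), NCKAP1 (-0.17), CYFIP2 (-0.31) and WASF2 (-0.43) were not called and fell outside the naming rule. BRK1 was at 81 reads in IL-8 and 19 in RM, against 116 in LD, 95 in IL-6 and 7 in HD, a log2 ratio of -2.26 (counting interval -3.06 to -1.52), and CYFIP1 at 42 and 21 reads (-1.17). WASF1 (13 and 2 reads, -2.87), a paralogue of WASF3, and WIPF1 (31 and 9 reads, -1.95), a WASP partner, were also lower.

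Among 51 genes of actin dynamics and contractility, 6 were called higher (11.8%) and 5 lower (9.80%). The contractile genes MYL9, a myosin light chain, at 565 reads in IL-8 and 1376 in RM, against 825 in LD, 624 in IL-6 and 174 in HD, a log2 ratio of 1.12 (counting interval 0.98 to 1.26), and CNN2, a calponin, at 913 reads in IL-8 and 2478 in RM, against 1854 in LD, 848 in IL-6 and 92 in HD, a log2 ratio of 1.27 (counting interval 1.16 to 1.39), were higher. VASP, which extends filaments at their barbed ends, had 456 and 1247 reads (1.28) and CFL2, a cofilin that severs them, 5 and 35 reads (2.64). GSN, the severing protein gelsolin, had 710 reads in IL-8 and 209 in RM, against 368 in LD, 302 in IL-6 and 23 in HD, a log2 ratio of -1.93 (counting interval -2.16 to -1.71), with its highest level in IL-8. TAGLN, an actin cross-linker of contractile cells, had 704 and 377 reads (-1.07), the formin FMNL2 249 and 87 reads (-1.68) and EVL 25 and 4 reads (-2.81). Scaled by total reads, MYL9 was at 0.93 and no longer 2-fold.

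Integrins and focal adhesion genes were steadier, with 1 of 26 called higher and 2 lower, shares of 3.85% and 7.69%. These were TLN2, a talin (29 and 66 reads, 1.02, 0.83 when scaled by total reads), PARVA, the alpha-parvin gene, and BCAR1, the p130Cas scaffold gene (136 and 73 reads, -1.06). PARVA had 122 reads in IL-8 and 29 in RM, against 137 in LD, 68 in IL-6 and 40 in HD, a log2 ratio of -2.24 (counting interval -2.88 to -1.65).

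Matrix protein genes divided, with 5 of 37 called higher (13.5%) and 6 lower (16.2%). FN1, the fibronectin gene, had 562 reads in IL-8 and 1267 in RM, against 997 in LD, 771 in IL-6 and 79 in HD, a log2 ratio of 1.01 (counting interval 0.86 to 1.15), and 0.82 when scaled by total reads. FBN1, a fibrillin, had 73 and 184 reads (1.17, and 0.98 when scaled by total reads) and the laminin chain genes LAMA4 18 and 61 reads (1.59) and LAMA5 4 and 36 reads (3.00). COL1A2, a chain of type I collagen, had 151 reads in IL-8 and 28 in RM, against 42 in LD, 33 in IL-6 and 4 in HD, a log2 ratio of -2.60 (counting interval -3.23 to -2.01). COL1A2 was high in IL-8 only. COL12A1 had 20 and 1 read (-4.49), the cross-linking enzyme gene LOX 41 and 10 reads (-2.20) and the basement membrane gene NID1 10 and 0 reads, at least 3.74-fold lower. Of 20 matrix proteases and inhibitors, 2 were called each way (10.0%). PLAT, the tissue plasminogen activator gene, had 1 read in IL-8 and 46 in RM, against 12 in LD, 4 in IL-6 and 1 in HD, a log2 ratio of 5.36 (counting interval 2.81 to 10.69), MMP15 6 and 50 reads (2.89), MMP17 59 and 26 reads (-1.35) and TIMP3 68 and 35 reads (-1.12).

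TGF-beta pathway genes had a median of 0.42, with 6 of 27 called higher (22.2%) and 3 lower (11.1%). The median was 0.13 over genes with at least 10 reads in each library and 0.08 on deposited TPM. SNAI1, a repressor of E-cadherin, had 4 reads in IL-8 and 54 in RM, against 30 in LD, 16 in IL-6 and 0 in HD, a log2 ratio of 3.59 (counting interval 2.15 to 5.52). PMEPA1, a feedback inhibitor of the pathway, had 418 reads in IL-8 and 1171 in RM, against 771 in LD, 551 in IL-6 and 25 in HD, a log2 ratio of 1.32 (counting interval 1.16 to 1.48). ENG, a co-receptor, had 3 reads in IL-8 and 48 in RM, against 4 in LD, 0 in IL-6 and 0 in HD, a log2 ratio of 3.83 (counting interval 2.20 to 6.16). All of them were highest in RM by CPM. ID2 (3 and 29 reads, 3.11) and ID1 (113 and 54 reads, -1.23), related inhibitors of differentiation, moved in opposite directions. SMAD3, a signal transducer (13 and 4 reads, -1.87), and LTBP2, a latent TGF-beta binding family member (370 and 116 reads, -1.84), were lower.

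Mitotic genes were more often lower than higher. Of 47 compared, 14 were called lower (29.8%) and 4 higher (8.51%), although the median was only -0.03. The median was 0.01 under size factors from the 4 low-density libraries, -0.22 when scaled by total reads and -0.42 over the 30 genes with at least 50 reads summed. AURKB, the kinase of the chromosomal passenger complex, had 182 reads in IL-8 and 6 in RM, against 131 in LD, 73 in IL-6 and 3 in HD, a log2 ratio of -5.09 (counting interval -6.55 to -3.94). CENPA, the centromeric histone H3 variant, had 71 reads in IL-8 and 2 in RM, against 64 in LD, 46 in IL-6 and 3 in HD, a log2 ratio of -5.32 (counting interval -8.39 to -3.41). Both were well represented in the other low-density libraries and nearly missing from RM. CDC20, an activator of the anaphase-promoting complex, had 221 and 78 reads (-1.67) and the checkpoint gene BUB3 103 and 25 reads (-2.21). BIRC5, the survivin partner of AURKB in the same complex, was higher (2.33). So were the transcription factors of the mitotic program, FOXM1 at 36 reads in IL-8 and 94 in RM, against 266 in LD, 71 in IL-6 and 6 in HD, a log2 ratio of 1.22 (counting interval 0.65 to 1.81), and MYBL2 at 24 reads in IL-8 and 88 in RM, against 132 in LD, 94 in IL-6 and 5 in HD, a log2 ratio of 1.71 (counting interval 1.04 to 2.42). The spindle checkpoint kinase gene TTK had 11 and 42 reads (1.77).

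DNA replication genes divided, with 7 of 39 called higher (17.9%) and 6 lower (15.4%). TK1, the S-phase thymidine kinase, had 41 reads in IL-8 and 274 in RM, against 114 in LD, 96 in IL-6 and 15 in HD, a log2 ratio of 2.57 (counting interval 2.10 to 3.08). MCM3, a helicase subunit, had 42 and 216 reads (2.20), the primase partner gene POLA2 35 and 194 reads (2.30) and the single-strand binding protein gene RPA1 20 and 128 reads (2.51). LIG1, which seals Okazaki fragments, had 371 reads in IL-8 and 119 in RM, against 250 in LD, 103 in IL-6 and 46 in HD, a log2 ratio of -1.81 (counting interval -2.12 to -1.51). CDC45 (23 and 3 reads, -3.11) and GINS3 (34 and 5 reads, -2.93), partners of MCM in the active helicase, and GMNN, the licensing inhibitor geminin (41 and 12 reads, -1.94), were lower.

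**Figure D3:**
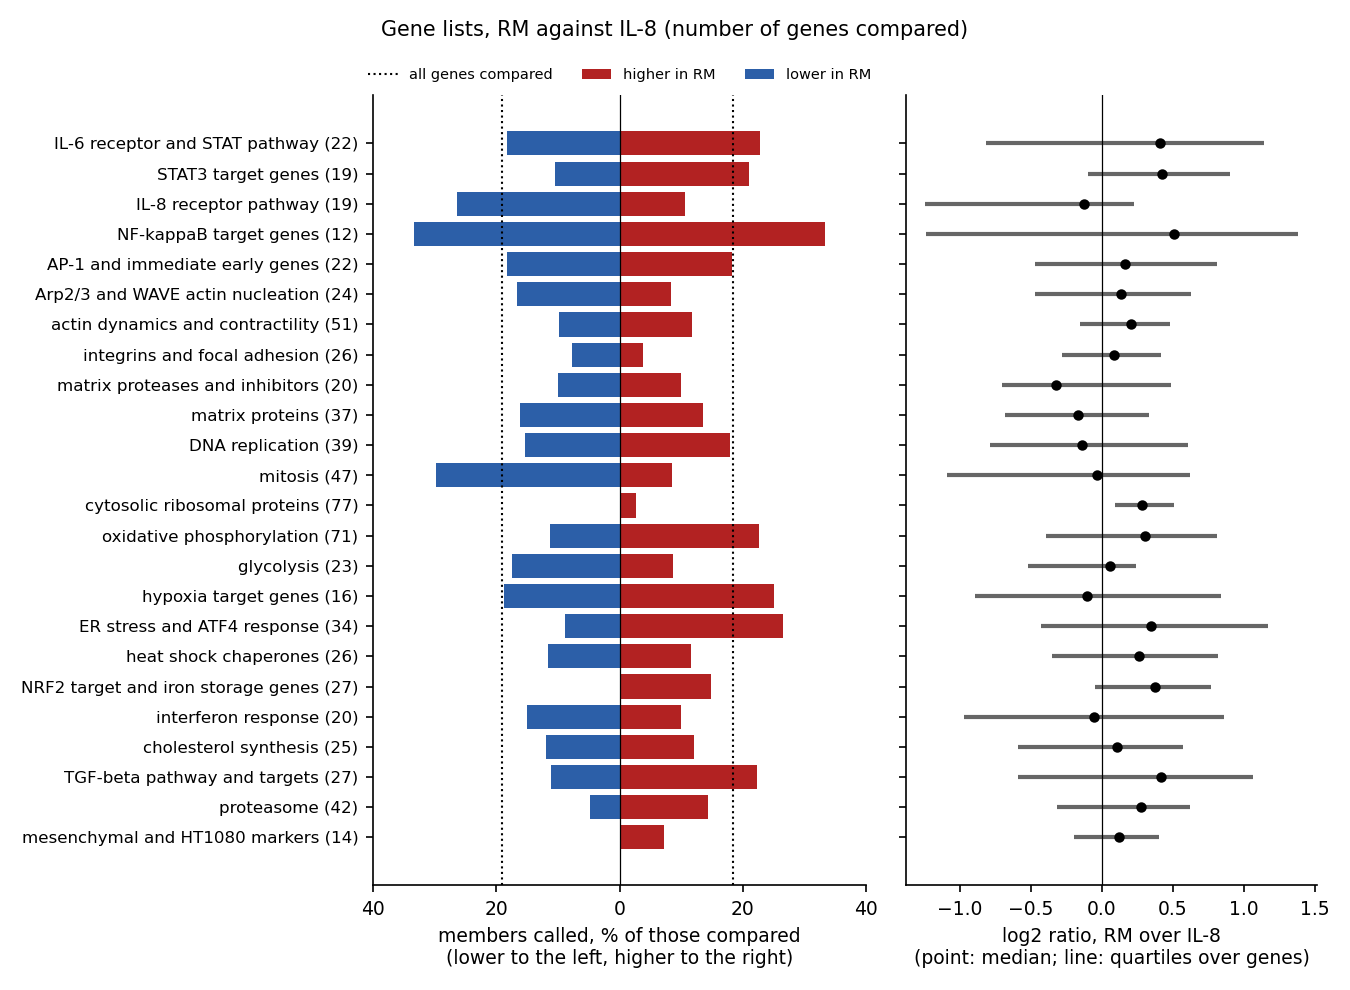
Left, the percentage of the compared members of each list shown that were called higher (right of 0) or lower (left of 0) in RM than in IL-8, with dotted lines at the shares over all genes (18.3% and 19.0%). Right, the median log2 ratio with the quartiles over genes, for example -0.33 for matrix proteases and inhibitors and 0.51 for NF-kappaB target genes. Only lists with at least 10 genes compared are drawn, and some lists are left out. NF-kappaB target genes (33.3%) and mitosis (29.8%) have the largest shares lower in RM, and cytosolic ribosomal proteins have the narrowest spread.

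Ribosomal protein genes were held in a narrow band. Of 77 compared, 2 were called higher (2.60%) and 0 lower, with a median of 0.29, quartiles of 0.09 and 0.51 and extremes of -0.42 and 1.24. The median was 0.10 when scaled by total reads and 0.07 on deposited TPM. RPL18 had 638 reads in IL-8 and 1693 in RM, against 1052 in LD, 929 in IL-6 and 87 in HD, a log2 ratio of 1.24 (counting interval 1.11 to 1.38), and RPL19 had 295 and 677 reads (1.03, and 0.84 when scaled by total reads). The quartiles over all genes were -0.88 and 0.83. Ribosomal protein genes had a median of 1204 reads over the 2 libraries, the range in which all genes also differed least.

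Of 71 oxidative phosphorylation genes, 16 were called higher (22.5%, near the background) and 8 lower (11.3%), with a median of 0.30 that was 0.11 when scaled by total reads and 0.05 on deposited TPM. The called higher genes lay in 2 complexes. Of 34 subunit genes of complex I, the NADH dehydrogenase, 14 were higher and 3 lower, with a median of 0.63, and of 10 genes of complex IV, the cytochrome oxidase, 2 were higher and 2 lower. No gene was called among 13 of the ATP synthase, and in complex III 0 of 10 were higher and 2 lower. This division by complex was made after the values were seen. NDUFV1, the flavoprotein subunit of complex I, had 365 reads in IL-8 and 1153 in RM, against 632 in LD, 501 in IL-6 and 26 in HD, a log2 ratio of 1.49 (counting interval 1.32 to 1.67). NDUFA9 had 78 and 332 reads (1.92), NDUFB4 6 and 48 reads (2.83) and NDUFA12 23 and 122 reads (2.24). NDUFS3, a core subunit of the same complex, went against them with 310 reads in IL-8 and 60 in RM, against 234 in LD, 78 in IL-6 and 13 in HD, a log2 ratio of -2.54 (counting interval -2.96 to -2.13). COX6C (20 and 3 reads, -2.90), UQCRC2 (186 and 84 reads, -1.31) and SDHB (59 and 19 reads, -1.80) were lower.

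Glycolytic genes had 2 of 23 called higher (8.70%) and 4 lower (17.4%). The glucose transporter genes parted, with SLC2A1 at 24 reads in IL-8 and 148 in RM, against 99 in LD, 61 in IL-6 and 7 in HD, a log2 ratio of 2.46 (counting interval 1.83 to 3.15), and SLC2A3 at 23 and 11 reads (-1.23). PFKFB4, which makes the activator of phosphofructokinase, had 29 and 99 reads (1.60) and PFKP, a phosphofructokinase, 196 and 80 reads (-1.46). HK2 had 47 and 22 reads (-1.26) and ALDOC 50 and 2 reads (-4.81). Of 16 hypoxia target genes, 4 were called higher (25%) and 3 lower (18.8%). NDRG1, a stress-induced gene, had 0 reads in IL-8 and 95 in RM, against 195 in LD, 0 in IL-6 and 0 in HD, at least 28.2-fold higher, and thus was at 0 in IL-6 as well as IL-8. EPAS1, which encodes HIF-2 alpha, had 13 and 3 reads (-2.28). In the proteasome list 6 of 42 were higher (14.3%) and 2 lower (4.76%). PSMB5, a catalytic subunit, had 202 and 556 reads (1.29), PSMC5 239 and 672 reads (1.32), PSMA2 16 and 72 reads (2.00), and the assembly factor gene POMP 28 and 93 reads (1.57). PSMD11 (573 and 300 reads, -1.10) and PSMA1 (26 and 12 reads, -1.28) were lower.

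ER stress and ATF4 response genes had 9 of 34 called higher (26.5%) and 3 lower (8.82%), with a median of 0.35 that was 0.16 when scaled by total reads. PDIA4, a disulphide isomerase, had 66 reads in IL-8 and 246 in RM, against 257 in LD, 143 in IL-6 and 4 in HD, a log2 ratio of 1.73 (counting interval 1.33 to 2.15). SESN2 had 83 reads in IL-8 and 325 in RM, against 72 in LD, 140 in IL-6 and 6 in HD, a log2 ratio of 1.80 (counting interval 1.45 to 2.17). SYVN1, the HRD1 ubiquitin ligase of ER-associated degradation, had 17 and 70 reads (1.88). The sensor gene ATF6 (85 and 47 reads, -1.02, and -0.98 under size factors from the 4 low-density libraries), the asparagine synthetase gene ASNS (18 and 5 reads, -2.01) and CRELD2 (39 and 11 reads, -1.99) were lower. NRF2 target and iron storage genes had 4 of 27 called higher (14.8%) and 0 lower, with a median of 0.37 that was 0.15 on deposited TPM. SLC7A11, the cystine importer, had 19 reads in IL-8 and 59 in RM, against 113 in LD, 35 in IL-6 and 43 in HD, a log2 ratio of 1.47 (counting interval 0.70 to 2.30). GCLM, a subunit of the glutathione synthesis enzyme, had 6 and 25 reads (1.89), and ABCC1, a glutathione conjugate exporter, 17 and 43 reads (1.17, and 0.98 when scaled by total reads). The levels of SLC7A11 were highest in HD and LD by CPM.

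The remaining stress and lipid lists lay below the background in both directions. Of 26 heat shock chaperone genes, 3 were called higher and 3 lower (11.5% each). BAG3, an HSP70 co-chaperone, had 67 reads in IL-8 and 293 in RM, against 198 in LD, 113 in IL-6 and 11 in HD, a log2 ratio of 1.96 (counting interval 1.57 to 2.37), HSPA4 54 and 151 reads (1.32), HSPB8 64 and 5 reads (-3.84) and CHORDC1 28 and 10 reads (-1.65). Of 25 cholesterol synthesis genes, 3 were called higher and 3 lower (12% each). FDFT1, the squalene synthase gene, had 133 and 380 reads (1.35), MVK 25 and 80 reads (1.51) and PMVK 12 and 50 reads (1.89). The regulators SCAP (112 and 44 reads, -1.51) and INSIG1 (65 and 35 reads, -1.06) were lower, and TM7SF2 had 14 and 0 reads, at least 5.24-fold lower. Of 20 interferon response genes, 2 were higher (10.0%) and 3 lower (15.0%). IFI27 had 90 reads in IL-8 and 11 in RM, against 10 in LD, 11 in IL-6 and 1 in HD, a log2 ratio of -3.20 (counting interval -4.25 to -2.29), and IFIT3 had 17 and 6 reads (-1.67). IRF9, a DNA-binding subunit of the interferon response, had 0 reads in IL-8 and 14 in RM, against 29 in LD, 0 in IL-6 and 0 in HD, at least 4.16-fold higher in RM.

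Adding IL-6 to IL-8 was set beside adding IL-6 to untreated cells, a comparison of the IL-6 and LD libraries that shares no library with RM against IL-8. Of 10970 genes compared there, 1133 were called higher in IL-6 (10.3%) and 1035 lower (9.43%). Over the 9211 genes compared in both, the log2 ratios had a Pearson correlation of -0.01 and a Spearman correlation of -0.01, and over the 373 genes with at least 1000 reads in each comparison 0.05 and 0.03. These are descriptions across genes, which are not independent replicates. Of 1615 genes called higher in RM, 189 were called higher in IL-6 (11.7%) and 190 lower (11.8%), beside 9.55% and 8.37% of all 9211 genes. These 189 were 21.5% of the 880 genes called higher in IL-6. Of 1695 genes called lower in RM, 188 were called lower in IL-6 (11.1%) and 223 higher (13.2%). These 188 were 24.4% of the 771 genes called lower in IL-6. Thus a gene called in RM was about as often called in the opposite direction as in the same direction in IL-6.

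Some genes did differ in the same direction both times. CDK10, a cyclin-dependent kinase gene, had 411 reads in IL-8 and 2621 in RM, against 96 in LD, 587 in IL-6 and 11 in HD, log2 ratios of 2.51 with IL-8 and 3.14 without. SESN2 was at 1.80 with IL-8 and 1.49 without, and NFKB2 at 1.58 and 1.66. RERE, a nuclear corepressor gene, had 1212 reads in IL-8 and 245 in RM, against 681 in LD, 215 in IL-6 and 14 in HD, log2 ratios of -2.47 with IL-8 and -1.13 without. ATP6V0B was at -1.86 and -1.36. CDK10 and RERE were picked after their values were seen, among the well-read genes called in both comparisons. SOCS3, at 3.33 with IL-8, was at 0.25 without it and not called there.

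**Figure D4:**
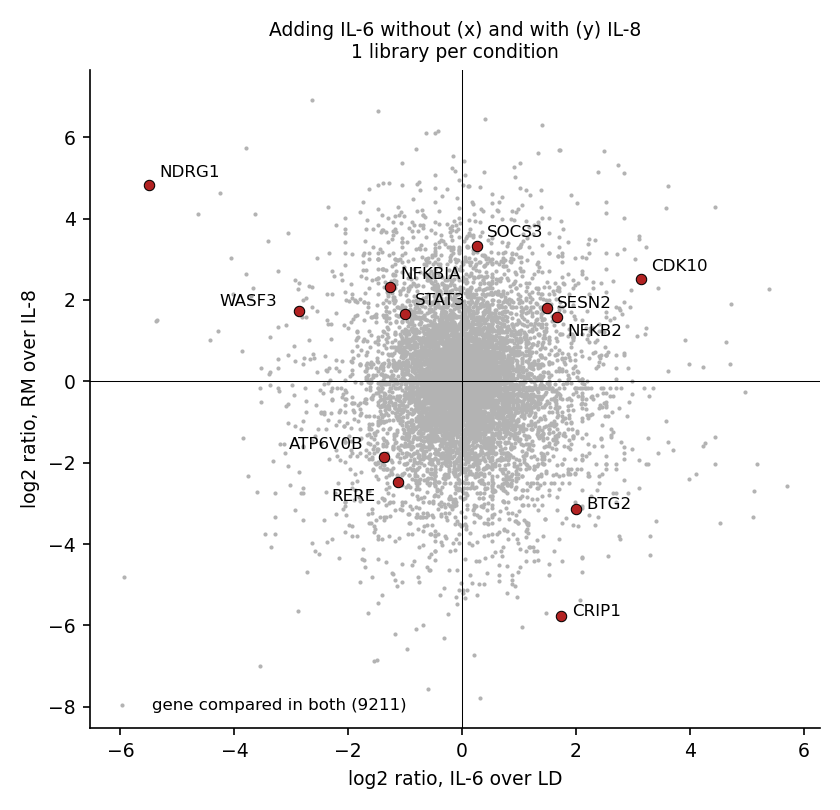
Each point is 1 of 9211 genes, with its log2 ratio of IL-6 over LD (horizontal) and of RM over IL-8 (vertical), 1 library per condition. The cloud has no slope (Pearson -0.01), CDK10, SESN2 and NFKB2 lie to the upper right, ATP6V0B and RERE to the lower left, and STAT3, NFKBIA, WASF3 and NDRG1 to the upper left.

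Most called genes had both libraries outside the range that LD and IL-6 spanned. With scaled reads of the 4 low-density libraries, among 1795 genes called higher RM alone was outside that range for 413 (23.0%), IL-8 alone for 172 (9.58%) and both for 1185 (66.0%). Among 1860 genes called lower, RM alone was outside for 282 (15.2%), IL-8 alone for 348 (18.7%) and both for 1198 (64.4%). These shares rest on the same RM and IL-8 libraries as the calls and are given as a description. They were computed for called genes only, so no share over all genes compared stands beside them. Choosing genes by a 2-fold difference between RM and IL-8 itself favours both lying outside the range. LD and IL-6 were also the closest pair of low-density libraries, with a median absolute log2 ratio of 0.31. No conclusion about the cytokines is drawn from these shares.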

How the data were processed

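RNA from HT1080 cells in collagen gels was poly(A)-selected with oligo-dT, reverse transcribed, amplified as a whole pool with phi29 polymerase and made into libraries with a Nextera XT kit. The submitters' processing notes name CASAVA 1.4, FastQC, Bowtie, Bowtie2 2.3.1 and RSEM 1.2.25, and the builds GRCh37 and hg19. For each library the authors deposited a read count and a TPM value per gene for 27189 genes. The counts are whole numbers, and the TPM values are scaled for gene length and depth. The deposited counts are RSEM estimates, so reads of near-identical genes were divided by a model. The exact interval treats them as plain counts.

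RNA5-8S5 was removed, genes with at least 10 reads summed over RM and IL-8 were kept, and reads were scaled by the median ratio over genes with reads in both. A gene with 0 reads in 1 library was taken at a bound of 3 reads in that library. Intervals are exact (Clopper-Pearson) at 95% and cover counting error only. A gene was called at 2-fold or more with the interval beyond no difference. A count of 0 allows up to 3 reads, a CPM of 2.68 outside RNA5-8S5 in IL-8 and 2.09 in RM. The scripts were tested on simulated data.

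The members of the 30 gene lists and the rules were chosen with earlier results of these data known. Some genes and lists are not reported here. Named genes were the 12 per direction whose interval lay farthest from no difference, up to 4 called genes per list and direction, 12 genes of the cytokine pathway, the 10 most read genes and the 5 most read called genes per direction. The list of genes restricted to liver and other tissues had no member with enough reads to be compared. Alternatives were TMM scaling (edgeR 4.0.16 in R 4.3.3), total reads with and without RNA5-8S5, size factors of the 4 low-density libraries, filters of 1 and 50 reads summed and 10 in each library, 1 read added, deposited TPM as log2(TPM + 1) for genes with at least 1 TPM in 1 of the 2 libraries, and a 4-fold threshold. Other steps used Python 3.11.15 with scipy 1.17.1, pandas 2.3.3 and numpy 2.4.6. Promoters and gene names came from RefSeq tables of GRCh38.p14.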

Additional observations from a re-analysis of the deposited data

Results flagged for a closer look

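For 22 named genes the addition of IL-6 went one way on top of IL-8 and the opposite way without it, each time at least 2-fold and beyond counting error. With 1 library per condition this difference was not tested. Among all 9211 genes compared both times, 190 were called higher in RM and lower in IL-6, and 223 the reverse. Beside them, 189 were called higher both times and 188 lower both times, so opposite calls were about as common as like ones. Other named genes were called the same way both times, among them NDUFA9, GRK6 and NDUFS3. The first value for each gene is the log2 ratio of RM over IL-8 minus that of IL-6 over LD.

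Of the named genes that went opposite ways, 17 were higher in RM than in IL-8 and lower in IL-6 than in LD. In the cytokine signalling group these were STAT3 (2.67, from 1.67 with IL-8 and -1.01 without), OSMR (3.30, from 1.92 with IL-8 and -1.38 without) and IRF9 (4.80, from 2.06 with IL-8 and -2.74 without). Next came the NF-kappaB inhibitor, an arrestin and the WAVE gene, NFKBIA (3.57, from 2.31 and -1.26), ARRB2 (4.35, from 2.58 and -1.77) and WASF3 (4.60, from 1.74 and -2.86). Genes of matrix, adhesion, differentiation and mitosis were ID2 (4.85, from 3.11 and -1.74), LAMA4 (2.94, from 1.59 and -1.34), TLN2 (2.49, from 1.02 and -1.47) and FOXM1 (2.59, from 1.22 and -1.38). Genes of stress, metabolism and proteasome assembly were AEN (2.59, from 1.58 and -1.02), DDIT4 (5.28, from 2.42 and -2.86), SLC7A11 (2.63, from 1.47 and -1.16), NDRG1 (10.31, from 4.82 and -5.49), MVK (3.89, from 1.51 and -2.38) and POMP (2.89, from 1.57 and -1.33). The homeobox gene HOXC5 was at 8.12, from 6.65 and -1.47. The other 5 were lower in RM than in IL-8 and higher in IL-6 than in LD, namely ATG4D (-7.09, from -6.04 and 1.05), BTG2 (-5.13, from -3.13 and 2.00), CRIP1 (-7.51, from -5.77 and 1.74), HSPA1A (-4.69, from -3.54 and 1.15) and MMP17 (-2.98, from -1.35 and 1.63). NDRG1 and IRF9 had no reads in both IL-6 and IL-8, HSPA1A and CRIP1 none in RM, so their values rest on the bound of 3 reads. The sum of HSPA1A and HSPA1B, which share their sequence, was not called. DDIT4 had 2 reads in IL-6 and 2 in IL-8, and WASF3 had 2 and 4. The calls of WASF3 and TLN2 between RM and IL-8 were lost when scaled by total reads.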

How the results depend on the processing

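The counts of genes called changed by over 1.5 times only where fewer genes were tested or the threshold was raised. With at least 50 reads summed, 5351 genes were compared, against 9797 in the main setting. Of these 5351 genes, 1029 were at least 2-fold higher and 1025 lower, and 1029 and 1025 beyond counting error. With at least 10 reads in each library these were 1007 and 1005 of 6384 genes, and 994 and 976 beyond counting error. At 4-fold they were 905 and 972, and 878 and 955 beyond counting error. Under every other alternative the counts stayed within 1.5 times of those reported. Total-read scaling gave 1505 genes called higher and 2259 lower. On deposited TPM, 2074 of 11964 genes were higher and 3120 lower by 2-fold. The 4 scalings turned the direction of none of the 179 named genes called. Total reads outside RNA5-8S5 ended 8 of those calls, among them WASF3 and FN1, total reads with RNA5-8S5 kept ended 5 and size factors of the 4 low-density libraries 2, and TMM scaling 0. Of 25 list medians, the sign changed for 6 under total reads, 5 with RNA5-8S5 kept, 1 under size factors of the 4 libraries, 8 on TPM, 5 with at least 50 reads summed and 1 with at least 10 in each library. With at least 1 read summed, 4 list medians became 0 and none took the opposite sign. The correlation of adding IL-6 with and without IL-8 was -0.02 over genes with at least 200 reads in each comparison, an alternative added after seeing the data. No paired analysis was possible because each condition had 1 library. At 1120609 and 1434366 reads outside RNA5-8S5, the calls of genes under 50 reads need large folds.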
